A study of Homo sapiens with 16 samples.

Results

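The comparison set 4 arrays of cells treated with DOC and PMA together against 4 arrays of cells treated with PMA alone, 8 of the 16 arrays of the series, chosen by their titles. It asks which genes a mineralocorticoid moved while protein kinase C was being driven by a phorbol ester given over the same 4 h. All cells were HEK293, an established human embryonic kidney line, and all had been transfected for 24 h with 500 ng per well of an expression plasmid for the mineralocorticoid receptor (MR), the product of NR3C2. The 4 PMA arrays came from cells given 10 nM phorbol 12-myristate 13-acetate (PMA) for 4 h, and the 4 DOC plus PMA arrays from cells given the same PMA with 100 nM deoxycorticosterone acetate (DOC) for the same time. The other arrays, 4 with vehicle and 4 with 100 nM DOC alone, serve below to show the same steroid step without PMA, and share the estimate of spread in the fit. The labels number the arrays of each group as biological replicates 1 to 4 and do not give the promoter of the plasmid. Cells without the plasmid were not analysed here, and the share of the DOC response that runs through the transfected receptor cannot be told apart from that of other receptors in the line.

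The mineralocorticoid receptor is a steroid-activated transcription factor that rests in the cytoplasm with heat shock chaperones, enters the nucleus when a mineralocorticoid binds, and acts at response elements that the glucocorticoid receptor also uses. In the kidney it is best known for sodium retention, through genes such as SGK1. Phorbol esters activate protein kinase C, which drives the ERK cascade and the AP-1 transcription factors, dimers of FOS and JUN proteins that bind sites of their own and are also known partners of steroid receptors. The series asks, by its title, how this receptor acts on inflammatory AP-1 signalling.

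Every value below is a log2 RMA signal, so a difference of 1 is 2-fold. RMA gives all arrays a common distribution, which hides any shift common to all genes. Within groups, arrays correlated at 0.991 to 0.997, with array medians between 4.91 and 4.96. The deviations of PMA replicate 2, DOC plus PMA replicate 2 and DOC replicate 1 from their group means ran together. Leaving out these 3 arrays, a setting added after the data were seen, gave 46 calls in place of 48, and 37 of the 48 were among them. The 11 genes lost were CDC42EP4, CYP1B1, FZD1, KLF7, LYPD1, MT2A, MYOM2, PKP2, RGCC, SYBU and UBE2QL1, at adjusted p of 0.0538 to 0.296. Of the 9 measured genes that mark HEK293 cells, 7 lay above the lowest array median with PMA and with DOC plus PMA, among them KRT8, KRT18, NEFL and NEFM. Their mean level per array was 8.34 to 8.48 with PMA and 8.25 to 8.47 with DOC plus PMA. Of 8 fibroblast markers, 0 lay above the lowest array median, at mean levels of 3.36 to 3.47 with PMA and 3.28 to 3.37 with DOC plus PMA. Leukocyte markers had mean levels of 4.20 to 4.27 and 4.21 to 4.36, with LCP1 and CORO1A above the lowest array median. Endothelial markers had 3.97 to 4.06 and 3.97 to 4.12, with EGFL7 above it in both groups and TIE1 with PMA, and mature tubule markers 3.56 to 3.65 and 3.57 to 3.68, with LRP2 alone among the tubule markers above the lowest array median. NR3C2 itself was measured at 6.99, 7.51, 7.07 and 7.28 with PMA and at 6.95, 7.28, 6.88 and 6.99 with DOC plus PMA, a difference of −0.19 ± 0.11 (SE, adjusted p = 1.0). Where its probe set lies relative to the plasmid insert is not known, so this level does not check the transfection. The glucocorticoid receptor NR3C1 was at 8.83 to 9.37 with PMA and 8.64 to 9.08 with DOC plus PMA (−0.25 ± 0.11, adjusted p = 1.0), so transcripts of both corticosteroid receptors were present in every array.

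The steroid response in the presence of PMA was narrow and mostly upward. In limma, 48 of 12495 genes passed an adjusted p of 0.05, which is 0.384% of those tested. Of these, 45 were higher with DOC plus PMA (0.360%) and 3 were lower (0.0240%). The lower side moved most with the settings: with replicate numbers as a block 48 were higher and 8 lower over 16 arrays, and 50 and 11 over the 8 arrays compared, while averaged probe sets gave 57 and 7 and a common median 41 and 6. Differences of at least 2-fold were reached by 10 of the 45 and 1 of the 3, and 37 genes differed by less. At the top were PDK4, CYP26A1, APOLD1 and TIPARP, between 3.99-fold and 8.52-fold higher, and the heat shock gene HSPA6 stood at the other end, 5.72-fold lower. All 4 arrays of one group lay beyond all 4 of the other in 46 of the 48 genes, and in 2.73% of all genes tested (250 higher and 91 lower). The exceptions were BDNF and SLC9A2. The 48 were picked by a test on these same arrays, so this count adds no support for them. An unadjusted p under 0.05 was found for 544 genes, 372 higher and 172 lower, where 625 would be found by chance. A fit of the 8 arrays alone called 34 genes, 32 of them among the 48, and a test of every kept probe set 35 of the 48. The fit of 8 arrays lost ARHGAP29, BDNF, CDC42EP4, FZD1, ITPKA, KLF7, LYPD1 and MYOM2. It also lost NRARP, PKP2, SLC9A2, SYBU, TBC1D10A, UBE2QL1, ZNF189 and ZNF57, and adjusted p ran from 0.0623 to 0.18 over all of these. Averaged probe sets ended the calls of ADGRG2, LYPD1, PKP2, SYBU and ZNF57. PHACTR3 and SPINK13 passed the filter on low signals only through arrays with DOC, and SLC9A2 only through those with DOC plus PMA, so these 3 genes had to be high there. The genes are ordered below by known role, a grouping of the calls that tests no theme.

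**Figure D1:**
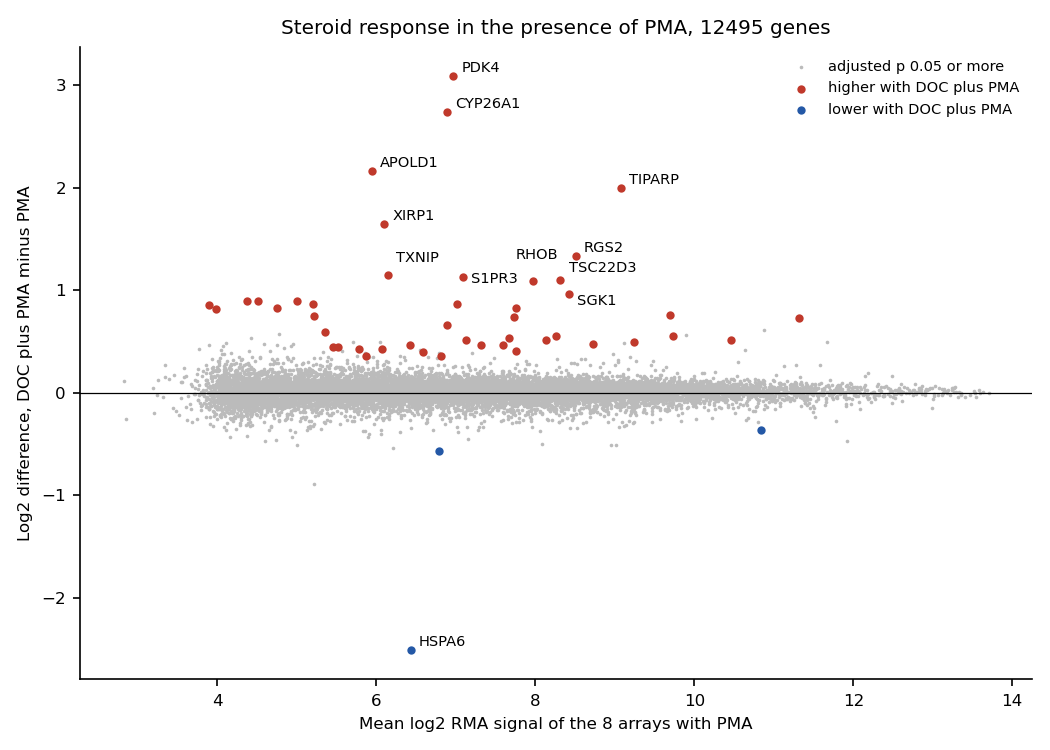
The log2 difference of DOC plus PMA minus PMA (vertical axis) is plotted against the mean log2 RMA signal of the 8 arrays with PMA (horizontal axis) for 12495 genes, 1 point a gene. Red points are the 45 genes that were higher, blue points the 3 that were lower at an adjusted p under 0.05, and grey points the rest, with names for the largest differences: most grey points lie close to 0, PDK4 stands at 3.09 and HSPA6 at −2.51.

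RefSeq start windows (GRCh38.p14, 250 bases before to 50 after an annotated start) were at hand for 40 of the 48 genes, 70 windows in all. Both strands were searched for the core of the steroid response element, ACANNNTGT, and for the AP-1 site, TGANTCA, each of which reads the same on both strands. The first was present for 3 of the 40 genes (APOLD1, TSC22D3 and TXNIP), in 5.71% of their windows, against 3.1% of the 15026 windows of all genes tested and 5.37% of all 35116 windows. The AP-1 letters were present for 6 genes (HSPA6, LYPD1, MT2A, SPINK13, TGIF1 and XIRP1), in 11.4% of windows against 5.24% and 7.71%. Both are short and a match is a description of the letters only, as is the lack of one in the windows of PDK4, CYP26A1, FKBP5 or SGK1. The windows of 5 genes that carry the results below are shown from 250 bases before the start up to it, 5′ to 3′ on the gene's strand, with the motif in capitals. TSC22D3, TXNIP and APOLD1 hold the steroid response element core and rose, HSPA6 holds 2 AP-1 matches and fell, and XIRP1 holds 1 and rose. They lie at chrX:107775788-107776037 (minus strand, TSC22D3), chr1:145996580-145996829 (minus, TXNIP), chr12:12785409-12785658 (plus, APOLD1), chr1:161524290-161524539 (plus, HSPA6) and chr3:39192596-39192845 (minus, XIRP1).
TSC22D3: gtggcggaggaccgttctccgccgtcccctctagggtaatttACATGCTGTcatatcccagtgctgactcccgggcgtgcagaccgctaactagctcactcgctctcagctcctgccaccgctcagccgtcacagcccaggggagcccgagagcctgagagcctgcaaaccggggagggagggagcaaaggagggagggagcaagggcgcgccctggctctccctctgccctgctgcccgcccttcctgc
TXNIP: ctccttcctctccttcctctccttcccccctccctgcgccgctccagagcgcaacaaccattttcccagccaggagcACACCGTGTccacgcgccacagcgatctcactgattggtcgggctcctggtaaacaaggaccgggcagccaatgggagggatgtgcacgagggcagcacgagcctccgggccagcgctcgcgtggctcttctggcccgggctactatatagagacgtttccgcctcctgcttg
APOLD1: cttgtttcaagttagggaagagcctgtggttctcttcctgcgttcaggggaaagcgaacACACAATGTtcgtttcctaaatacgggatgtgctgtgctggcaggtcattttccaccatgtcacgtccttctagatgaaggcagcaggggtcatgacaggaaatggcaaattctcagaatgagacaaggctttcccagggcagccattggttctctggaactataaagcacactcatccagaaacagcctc
HSPA6: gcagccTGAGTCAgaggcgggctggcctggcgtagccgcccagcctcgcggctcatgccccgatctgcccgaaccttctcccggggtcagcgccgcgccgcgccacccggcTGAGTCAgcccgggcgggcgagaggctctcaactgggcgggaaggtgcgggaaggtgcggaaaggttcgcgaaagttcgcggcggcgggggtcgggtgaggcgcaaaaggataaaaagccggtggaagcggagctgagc
XIRP1: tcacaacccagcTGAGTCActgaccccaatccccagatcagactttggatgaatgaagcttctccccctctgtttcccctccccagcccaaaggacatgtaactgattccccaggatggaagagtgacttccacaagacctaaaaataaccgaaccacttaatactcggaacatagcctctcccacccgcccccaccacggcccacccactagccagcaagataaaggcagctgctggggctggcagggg
The first base of the motif is at −208 in TSC22D3, −173 in TXNIP, −191 in APOLD1 and −238 in XIRP1, and the matches of HSPA6 begin at −244 and −139, counted back from the annotated start. The TSC22D3 motif is also in the window of another annotated start of that gene, at −7.

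SGK1, TSC22D3 and FKBP5, well-known steroid-induced genes, were higher with DOC plus PMA than with PMA alone. SGK1, the serum and glucocorticoid regulated kinase that keeps sodium channels at the membrane, had signals of 7.99, 7.88, 7.88 and 8.01 with PMA, in replicate order as in all such lists, and of 8.87, 8.86, 8.83 and 9.03 with DOC plus PMA. The groups did not overlap, and SGK1 rose by 0.96 ± 0.08 (SE, adjusted p = 1.04e-06, limma, n = 4 per group). With PMA alone SGK1 stood 1.43 ± 0.08 above vehicle, so its highest signals were in the arrays with both agents. TSC22D3, the glucocorticoid-induced leucine zipper, was at 7.80, 7.57, 7.83 and 7.86 with PMA and at 8.94, 8.62, 9.0 and 8.89 with DOC plus PMA, a rise of 1.10 ± 0.09 (adjusted p = 9.33e-07). Its PMA arrays lay 1.18 below vehicle on average (PMA minus vehicle, −1.18 ± 0.09), and the arrays with both agents overlapped the vehicle range of 8.89 to 9.03. FKBP5, the co-chaperone that damps steroid receptors in a feedback loop, rose from 10.14, 10.41, 10.15 and 10.13 to 10.77, 10.81, 10.57 and 10.74, which is 0.51 ± 0.08 (adjusted p = 0.00211). PMA replicate 2 was the highest of the PMA arrays and still lay below every array with the steroid. The 5 kept probe sets of FKBP5 gave differences of 0.44 to 0.62, and the 4 of SGK1 of 0.90 to 0.97. SLC19A2, a thiamine transporter, rose by 0.74 ± 0.09 (adjusted p = 0.00019), from 7.31 to 7.43 with PMA to 7.87 to 8.24 with both. ZNF189, a zinc finger gene, rose by 0.47 ± 0.09 (adjusted p = 0.0201), and its call was lost without PMA replicate 3 or 4 or DOC plus PMA replicate 1, 2 or 4 (adjusted p = 0.0743 to 0.0945) and with only the 8 arrays in the fit (0.0684).

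Metallothioneins, small zinc-binding proteins with known steroid and metal response elements, had 2 of 7 tested members past the threshold. Over all genes tested the share was 0.384%. MT1X rose by 0.55 ± 0.07 (adjusted p = 0.000263), from 7.95, 8.06, 8.01 and 7.92 to 8.61, 8.42, 8.54 and 8.57, and its arrays with both agents overlapped the vehicle range of 8.34 to 8.53. MT2A, the most widely expressed form, rose by 0.73 ± 0.15 (adjusted p = 0.0371), from 10.77 to 11.22 with PMA to 11.54 to 11.94 with both. The MT2A call was lost without vehicle replicate 3, PMA replicate 2, 3 or 4 or DOC plus PMA replicate 1, 2 or 4 (adjusted p = 0.0512 to 0.156), with trend and robust settings (0.0564), with every probe set tested (0.0675) and without the 3 arrays that deviated together (0.0559). The other 5 members were between 0.07 and 0.28 higher, none past the threshold. Metallothionein transcripts are nearly identical, and probe sets may read more than 1 of them.

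PDK4 and CYP26A1, genes of fuel and small-molecule metabolism, had the 2 largest rises. PDK4, the kinase that shuts pyruvate dehydrogenase and spares glucose, had signals of 5.69, 5.51, 5.18 and 5.30 with PMA and of 8.72, 8.52, 8.30 and 8.50 with DOC plus PMA. It rose by 3.09 ± 0.15, or 8.52-fold (adjusted p = 6.08e-10), with a gap of over 2 units between the highest PMA array and the lowest array with both. CYP26A1, the cytochrome P450 that clears retinoic acid, stood at 5.48, 5.51, 5.35 and 5.73 with PMA and at 8.45, 8.38, 7.87 and 8.32 with both, a rise of 2.74 ± 0.13 or 6.67-fold (adjusted p = 6.08e-10). No other tested gene of retinoic acid signalling, of 12, passed. TIPARP, a mono-ADP-ribosyltransferase that represses the aryl hydrocarbon receptor, rose by 2.00 ± 0.11 (adjusted p = 1.62e-09), from 8.14, 8.0, 8.10 and 8.06 to 10.13, 10.09, 9.98 and 10.09. The TIPARP groups did not overlap, and its other kept probe set gave 2.03. TXNIP, the thioredoxin-binding protein that limits glucose uptake, had 5.47, 5.40, 5.78 and 5.63 with PMA and 6.83, 6.71, 6.75 and 6.58 with both, a rise of 1.15 ± 0.15 (adjusted p = 0.000263). PMA alone stood 2.26 below vehicle for TXNIP (PMA minus vehicle, −2.26 ± 0.15), and the arrays with both agents remained below every vehicle array (7.58 to 8.17). The 5 kept TXNIP probe sets were higher by 0.49 to 1.23. CYP1B1, a P450 that oxidises estrogens and polycyclic hydrocarbons, rose by 0.83 ± 0.17 (adjusted p = 0.0417), from 7.60, 7.12, 7.39 and 7.25 to 8.40, 8.20, 7.90 and 8.18. CYP1B1 was the one gene of the 48 whose kept probe sets differed in sign, 4 at 0.83 to 0.98 and 1 at −0.09. Its call was lost without vehicle replicate 2, 3 or 4, PMA replicate 2, 3 or 4, DOC replicate 3 or DOC plus PMA replicate 1, 2 or 4 (adjusted p = 0.0515 to 0.17). It was also lost after cyclic loess (0.0516), with a common median (0.0501), with every probe set tested (0.0761) and without the 3 arrays that deviated together (0.167).

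**Figure D2:**
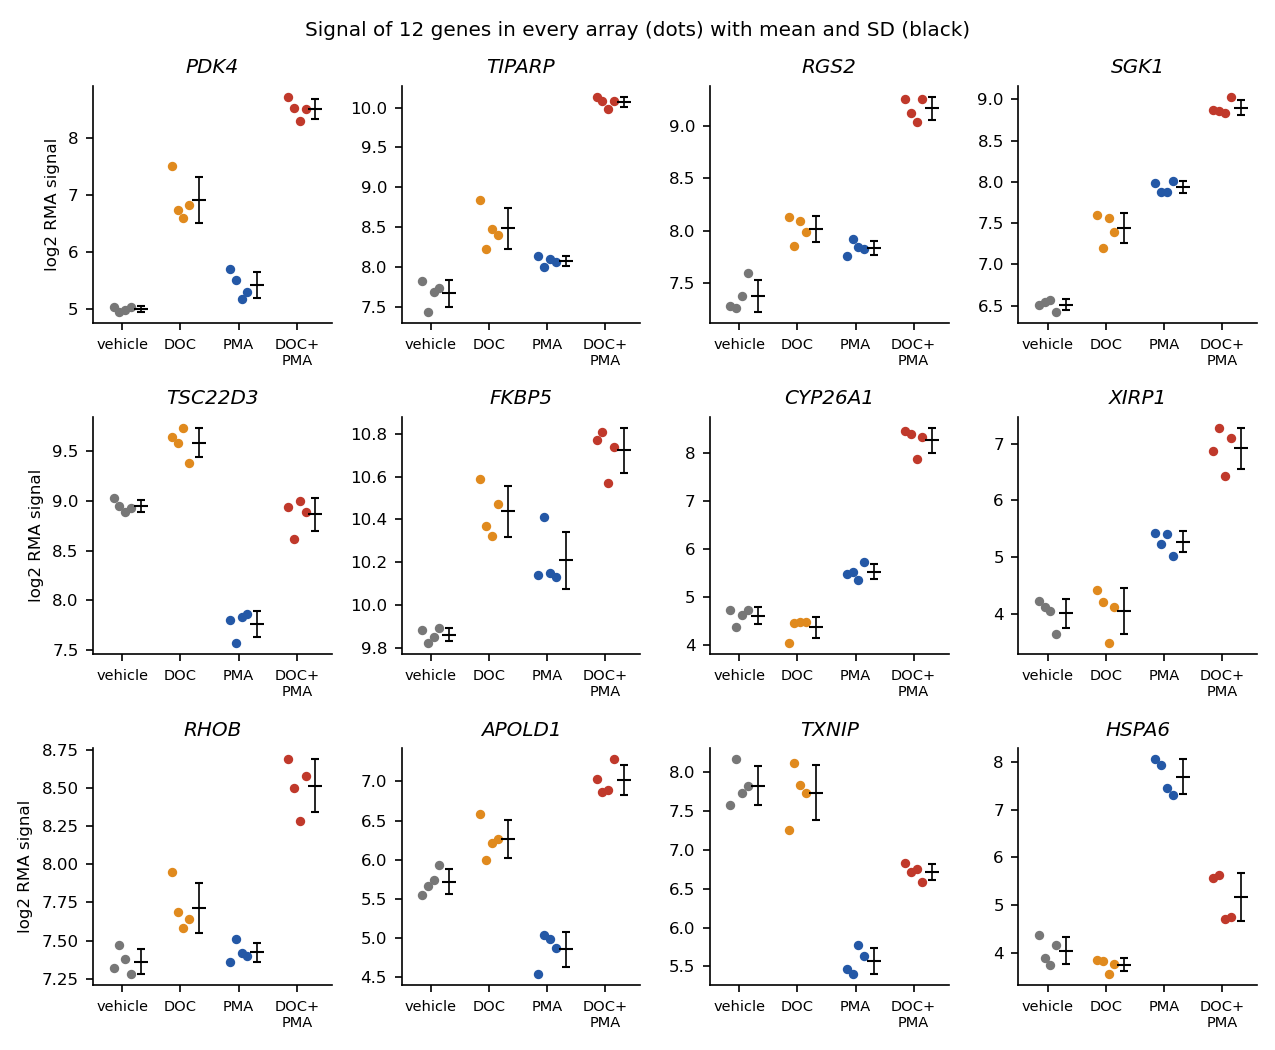
Log2 RMA signal of 12 genes in each of the 16 arrays: coloured dots are single arrays of the vehicle, DOC, PMA and DOC plus PMA groups, and the black bar beside them is the mean with the SD of 4 arrays. The axes differ between panels and do not start at 0. In 11 panels the 4 DOC plus PMA arrays lie above the 4 PMA arrays, with PDK4 at 8.30 to 8.72 against 5.18 to 5.69, and in the HSPA6 panel they lie below, at 4.71 to 5.63 against 7.31 to 8.06.

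Several calls were receptors or their regulators. S1PR3 and S1PR1, G protein-coupled receptors for sphingosine-1-phosphate, and RGS2, which shortens G protein signalling by speeding GTP hydrolysis, all rose. S1PR3 went from 6.73, 6.39, 6.50 and 6.48 to 7.75, 7.64, 7.49 and 7.76 (1.13 ± 0.08, adjusted p = 1.64e-07). S1PR1 was dim, at 4.21, 4.36, 3.87 and 3.80 with PMA and 5.23, 4.75, 4.81 and 5.03 with both (0.89 ± 0.16, adjusted p = 0.00898), and all 8 arrays lay below the vehicle range of 5.48 to 6.05. The other S1PR1 probe set gave 0.34. RGS2 had 7.76, 7.92, 7.85 and 7.83 with PMA and 9.26, 9.12, 9.04 and 9.26 with both, a rise of 1.33 ± 0.08 (adjusted p = 1.28e-08). Of the 18 tested sphingosine-1-phosphate and RGS genes these 3 passed, against 0.384% of all genes tested, and the median of the list was 0.04. The adrenergic receptor ADRA2A rose by 0.86 ± 0.14 (adjusted p = 0.00596), from 4.52 to 5.10 with PMA to 5.39 to 5.87 with both, and its vehicle arrays were at 3.46 to 3.88. THBD, thrombomodulin, the surface cofactor that turns thrombin toward protein C, rose by 0.83 ± 0.11 (adjusted p = 0.000281), from 4.25 to 4.42 up to 4.93 to 5.48. The adhesion receptor ADGRG2 rose by 0.54 ± 0.09 (adjusted p = 0.00433), a call lost when its probe sets were averaged (0.0768). The Wnt receptor FZD1 rose by 0.46 ± 0.09 (adjusted p = 0.0269), with every array of both groups below the vehicle range of 7.17 to 7.61.

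Weaker calls in this group were BDNF, the neurotrophin, at 0.75 ± 0.14 (adjusted p = 0.0197), LYPD1, a membrane-anchored modulator of nicotinic receptors, at 0.49 ± 0.10 (0.0417), RGCC, a regulator of the cell cycle, at 0.47 ± 0.10 (0.0482), and ITPKA, an inositol trisphosphate kinase that also bundles actin, at 0.45 ± 0.10 (0.0482). BDNF overlapped, since PMA replicate 2 (5.25) lay just above DOC plus PMA replicate 3 (5.24). Its call was lost without PMA replicate 1, 3 or 4 or DOC plus PMA replicate 1, 2 or 4 (adjusted p = 0.0663 to 0.0999). That of FZD1 was lost without PMA replicate 1 or 3 or DOC plus PMA replicate 1, 2 or 4 (0.0663 to 0.125), and with replicate numbers as a block over the 8 arrays (0.0622). LYPD1 was lost without vehicle replicate 2 or 3, any PMA replicate, DOC replicate 2 or 3 or DOC plus PMA replicate 1, 2 or 4 (0.0576 to 0.17). RGCC was lost without vehicle replicate 2 or 3, any PMA or DOC replicate or DOC plus PMA replicate 1, 2 or 4 (0.0532 to 0.19), with a block over all 16 arrays (0.0668) and after cyclic loess (0.0787). ITPKA was lost without any vehicle or PMA replicate, DOC replicate 2 or DOC plus PMA replicate 1 or 4 (0.0601 to 0.218), and under both blocks (0.0846 over 16 arrays and 0.0606 over 8). In these 5 genes the direction was upward in every alternative that tested them.

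XIRP1 led the called genes with roles in the cytoskeleton or cell contacts. XIRP1, an actin-binding protein of muscle cell junctions, had 5.42, 5.23, 5.41 and 5.03 with PMA and 6.87, 7.27, 6.43 and 7.09 with both, a rise of 1.64 ± 0.19 (adjusted p = 7.46e-05). Its vehicle arrays were at 3.66 to 4.24 and its DOC arrays at 3.49 to 4.43, so the signal was low without PMA and highest with both agents. RHOB, a small GTPase of endosomes whose transcript is quickly induced, rose by 1.08 ± 0.09 (adjusted p = 9.33e-07), from 7.36, 7.51, 7.42 and 7.40 to 8.69, 8.50, 8.28 and 8.58. That value is from the brightest of 5 probe sets, and the other 4 gave 0.05 to 0.26, so the size of the RHOB rise depends on the probe set. PHACTR3, which binds actin and protein phosphatase, was near the floor at 3.42, 3.22, 3.61 and 3.62 with PMA and reached 4.20, 4.56, 4.17 and 4.38 with both (0.86 ± 0.10, adjusted p = 7.02e-05), all below the array medians. PKP2, a desmosome plaque protein, rose by 0.51 ± 0.11 (adjusted p = 0.0482), ARHGAP29, a GTPase-activating protein, by 0.46 ± 0.09 (0.0382), and CDC42EP4, an effector of the GTPase CDC42, by 0.36 ± 0.07 (0.0274). MYOM2, a sarcomere protein, rose by 0.59 ± 0.11 (0.0195), and SYBU, which ties syntaxin cargo to kinesin, by 0.36 ± 0.08 (0.044). The other 3 SYBU probe sets gave 0.03 to 0.10, and its adjusted p with averaged probe sets was 1.0.

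Several of these smaller calls were lost on leaving out any 1 of several arrays. Vehicle and DOC arrays enter these differences only through the shared spread, so leaving 1 of them out did not change the differences. PKP2 was lost without vehicle replicate 1 or 3, any PMA or DOC replicate or DOC plus PMA replicate 1, 2 or 4 (adjusted p = 0.0574 to 0.19), and after cyclic loess (0.0716). ARHGAP29 was lost without vehicle replicate 2 or 3, PMA replicate 1, 3 or 4, DOC replicate 2 or 3 or DOC plus PMA replicate 1, 2 or 4 (0.0506 to 0.151). CDC42EP4 was lost without PMA replicate 3 or 4 or DOC plus PMA replicate 2 or 4 (0.0839 to 0.131), MYOM2 without PMA replicate 3 or DOC plus PMA replicate 2 or 3 (0.0598 to 0.0925), and both with the block over 8 arrays (0.0651 each). SYBU was lost without vehicle replicate 2, 3 or 4, any PMA replicate, DOC replicate 3 or 4 or DOC plus PMA replicate 2, 3 or 4 (0.0576 to 0.195), and with the block over 16 arrays (0.0515). In every alternative these genes stayed above 0.

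The remaining calls had varied roles. ELL2, an elongation factor of RNA polymerase II, had 9.52, 9.21, 9.24 and 9.28 with PMA and 10.07, 10.11, 10.04 and 10.06 with both, a rise of 0.76 ± 0.07 (adjusted p = 4.46e-06) on top of a PMA difference from vehicle of 1.88 ± 0.07. TGIF1, a homeobox repressor of SMAD-driven transcription, rose by 0.51 ± 0.07 (adjusted p = 0.000588), from 7.95, 7.70, 7.90 and 7.93 to 8.44, 8.39, 8.29 and 8.42. APOLD1, an endothelial and immediate early gene of the apolipoprotein L family, had 4.54, 5.04, 4.99 and 4.87 with PMA and 7.03, 6.86, 6.89 and 7.29 with both, a rise of 2.16 ± 0.13 or 4.47-fold (adjusted p = 1.16e-08). Its PMA arrays lay below every vehicle array (5.55 to 5.93) and the arrays with both lay above them. HS3ST3B1, a heparan sulfate sulfotransferase, rose by 0.66 ± 0.07 (adjusted p = 6.55e-05), from 6.46 to 6.67 up to 7.16 to 7.32. SHISA2, which holds back Wnt and FGF receptors, rose by 0.86 ± 0.12 (adjusted p = 0.000808), and PRR15, a small proline-rich protein, by 0.89 ± 0.15 (0.00596). TMX4, a thioredoxin-like membrane protein, rose by 0.55 ± 0.08 (0.000933) and KLHL36, an adaptor of ubiquitin ligases, by 0.42 ± 0.07 (0.00596). SPINK13, a protease inhibitor, rose by 0.82 ± 0.10 (adjusted p = 0.000111) between arrays that all lay below the array medians (3.47 to 3.67 and 4.09 to 4.70).

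SLC9A2, a sodium-proton exchanger, rose by 0.89 ± 0.17 (adjusted p = 0.0247) at a low signal, with PMA replicate 2 (4.44) above DOC plus PMA replicate 3 (4.33). UBE2QL1, a ubiquitin-conjugating enzyme, rose by 0.42 ± 0.07 (0.00975), TBC1D10A, which inactivates Rab GTPases, by 0.41 ± 0.08 (0.0374), the Krüppel-like factor KLF7 by 0.45 ± 0.09 (0.044) and the zinc finger gene ZNF57 by 0.39 ± 0.07 (0.0136). In these 5 genes the call was lost under some omissions. For SLC9A2 these were PMA replicate 1, 3 or 4 and DOC plus PMA replicate 1, 2 or 4 (adjusted p = 0.071 to 0.114), and for UBE2QL1 PMA replicate 3 (0.0503), with 0.0536 under the block over 8 arrays. For TBC1D10A they were vehicle replicate 2 or 3, PMA replicate 1, 3 or 4, DOC replicate 3 and DOC plus PMA replicate 1, 2 or 4 (0.0518 to 0.153). KLF7 was lost without any vehicle or DOC plus PMA replicate, PMA replicate 1 or 4 or DOC replicate 4 (0.0519 to 0.184) and under both blocks (0.0635 over 16 arrays and 0.128 over 8), and ZNF57 without PMA replicate 1 or DOC plus PMA replicate 4 (0.0664 to 0.0796).

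HSPA6 led the genes that fell. This strictly inducible form of the 70 kDa heat shock protein, whose transcript is nearly identical to that of HSPA7, was at 4.39, 3.89, 3.75 and 4.17 with vehicle and 8.06, 7.93, 7.45 and 7.31 with PMA. With DOC plus PMA it stood at 5.58, 5.63, 4.71 and 4.76, below every PMA array and above every vehicle array. It fell by 2.51 on the log2 scale (SE 0.21, adjusted p = 9.33e-07, 5.72-fold). Among the 14 tested inducible heat shock genes it alone passed, and 12 of 14 differences were below 0, with a median of −0.06. HSPA1B, the main inducible form of the same family, with a near-identical neighbour in HSPA1A, had 12.25, 12.42, 11.92 and 12.03 with PMA and 11.62, 11.99, 11.52 and 11.61 with both (−0.47 ± 0.12, adjusted p = 0.139), and its arrays overlapped. With replicate numbers as a block the HSPA1B difference passed (0.00793 over 16 arrays and 0.0164 over 8), as it did without DOC plus PMA replicate 2 (0.0365). RNF122, a membrane-bound ubiquitin ligase, fell by 0.57 (SE 0.10, adjusted p = 0.00596), from 7.19, 6.93, 7.07 and 7.10 to 6.37, 6.44, 6.48 and 6.72, with vehicle at 5.12 to 5.56. NRARP, a feedback inhibitor of Notch signalling, fell by 0.36 (SE 0.08, adjusted p = 0.0448), from 11.03, 11.11, 10.99 and 10.97 to 10.53, 10.85, 10.65 and 10.60, with vehicle at 8.01 to 8.18. In all 3 genes every array of both groups lay above every vehicle array. The NRARP call was lost without vehicle replicate 1, 2 or 3, any PMA replicate, DOC replicate 2 or 3 or DOC plus PMA replicate 1, 3 or 4 (adjusted p = 0.0576 to 0.186), and with the block over 8 arrays (0.0538).

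The comparison of PMA with vehicle shares its 4 PMA arrays with the present one, so its values are only set beside the members here. It called 5869 genes, or 47.0% of those tested, at a threshold where the steroid step called 0.384%. Among the genes above, the PMA minus vehicle difference ran from −2.26 for TXNIP, −1.61 for S1PR1, −1.19 for FZD1, −1.18 for TSC22D3, −1.08 for PRR15 and −1.03 for SYBU to 1.88 for ELL2, 2.47 for RGCC, 2.91 for NRARP and 3.64 for HSPA6. For PDK4 it was 0.42, for TIPARP 0.40, for RGS2 0.46 and for RHOB 0.06. The genes raised by the steroid were thus spread over PMA differences of either sign.

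DOC against vehicle gave the same steroid step without PMA, on 8 other arrays, which enter the present comparison only through the shared estimate of spread. It called 15 genes (0.120%), all higher, and 386 had an unadjusted p under 0.05, 94 of them lower. FKBP5, PDK4, PHACTR3, RGS2, S1PR3, SGK1, SPINK13, TIPARP, TSC22D3 and ZNF189 were called in both, which is 20.8% of the 48 and 66.7% of the 15. PHACTR3 and SPINK13 were tested only because arrays with DOC passed the filter, so these 2 add no support for a shared response. Of these 10, the DOC against vehicle call of ZNF189 was lost without any vehicle replicate, PMA replicate 1 or 4, DOC replicate 1, 2 or 3 or DOC plus PMA replicate 1, 2 or 4 (adjusted p = 0.0511 to 0.209). That of SPINK13 was lost without vehicle replicate 2, 3 or 4 or DOC replicate 2 (0.0593 to 0.0837), and that of TSC22D3 with averaged probe sets (0.0608). The 15 genes chosen without PMA had a median difference of 0.64 there and of 0.82 with PMA, and 14 of 15 were above 0 with PMA. PHACTR3 and SPINK13 are in these medians and counts, as in the shared percentages above, and add no support there either. In all genes tested the medians were 0.01 without and 0.02 with PMA, and 58.0% were above 0 with PMA. Called without PMA alone were NFKBIA, the inhibitor that holds NF-kB in the cytoplasm, the alpha tubulins TUBA3D and TUBA3E, which are nearly identical, the antisense transcript STARD7-AS1, and PHLDA1. The call of NFKBIA was lost without vehicle replicate 3 or 4 or DOC replicate 1 or 4 (adjusted p = 0.0629 to 0.0879), and that of STARD7-AS1 without any vehicle replicate or DOC replicate 2, 3 or 4 (0.0503 to 0.169). With PMA their differences were 0.33 for NFKBIA (adjusted p = 0.779), 0.38 for TUBA3D (0.0507), 0.39 for TUBA3E (0.104), 0.23 for STARD7-AS1 (1.0) and −0.14 for PHLDA1 (1.0). TUBA3D passed with PMA in 7 of 28 alternatives, among them averaged probe sets (adjusted p = 0.037), and TUBA3E with array weights (0.0367). The call of TUBA3D without PMA was lost without the 3 arrays that deviated together (0.0626).

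Turned around, 38 of the 45 genes that rose with PMA were also above 0 without it, and the 3 that fell were below 0 in both. PHACTR3 and SPINK13 are among the 38, and the filter required them to be high in arrays with DOC. The 7 on the other side without PMA were CDC42EP4, CYP26A1, HS3ST3B1, ITPKA, LYPD1, RGCC and TXNIP, none lower than −0.24. In all genes 57.4% were above 0 without PMA. The 45 had a median of 0.74 with PMA and of 0.19 without, but they were chosen by the first of these values, so the medians cannot be set against each other. Over the 48 genes the differences with and without PMA had a Pearson correlation of 0.52 and a Spearman correlation of 0.38, and over all 12495 genes the Pearson correlation was 0.17. These are descriptions across genes, which share arrays and are not independent.

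**Figure D3:**
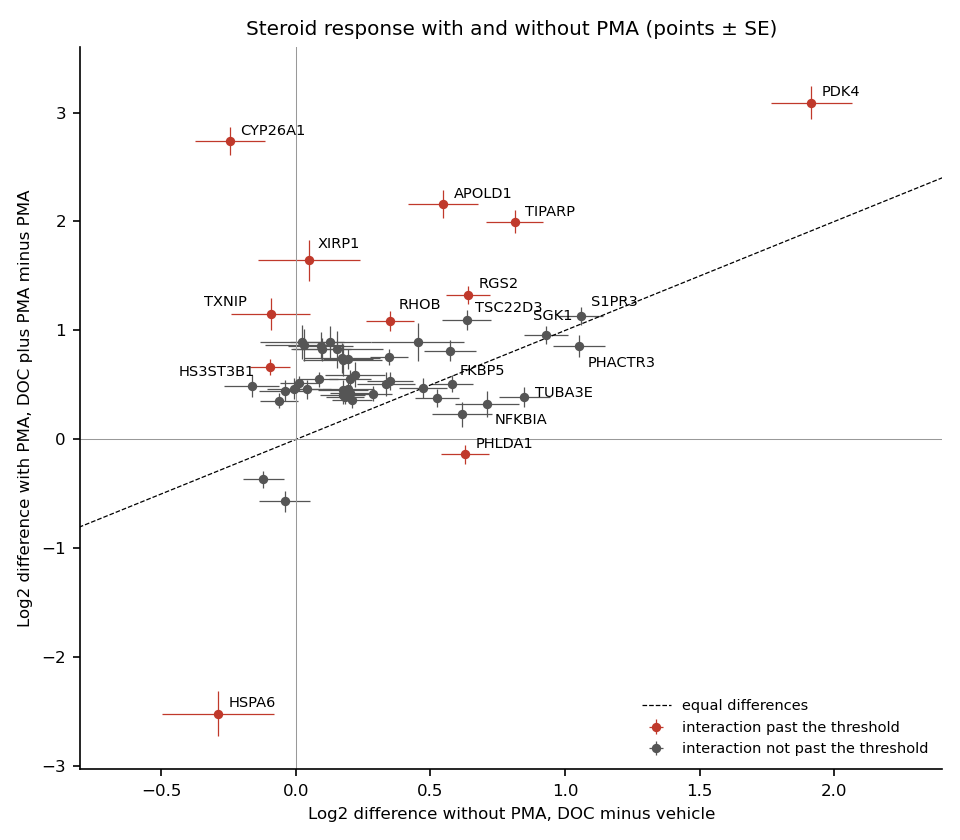
Log2 difference of DOC plus PMA minus PMA (vertical axis) against that of DOC minus vehicle (horizontal axis), with SE bars from limma, for the genes past the threshold in either comparison or in the interaction. Red points had an interaction past the threshold and the dashed line marks equal differences: CYP26A1, APOLD1, TIPARP, XIRP1 and PDK4 lie far above it, HSPA6 and PHLDA1 below, and S1PR3, SGK1 and FKBP5 close to it.

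Whether the steroid step differed with and without PMA was tested by the interaction, which takes the DOC difference without PMA from that with PMA and uses all 16 arrays. It called 11 genes, or 0.0880%, and 370 had an unadjusted p under 0.05. CYP26A1 had the largest value, 2.98 ± 0.18 (adjusted p = 5.65e-08), since DOC alone left it at 4.03, 4.46, 4.48 and 4.47 against 4.73, 4.36, 4.61 and 4.73 with vehicle. APOLD1 followed at 1.61 ± 0.19 (adjusted p = 0.000531), XIRP1 at 1.59 ± 0.27 (0.0194), TXNIP at 1.24 ± 0.21 (0.0194), TIPARP at 1.18 ± 0.15 (0.00137), PDK4 at 1.18 ± 0.21 (0.0381), HS3ST3B1 at 0.76 ± 0.11 (0.00301), RHOB at 0.73 ± 0.13 (0.0234) and RGS2 at 0.69 ± 0.12 (0.0194). In these 9 genes the DOC difference was higher with PMA. For CYP26A1, HS3ST3B1 and TXNIP it was below 0 without PMA. The vehicle and DOC arrays of CYP26A1 and XIRP1 all lay below the lowest array median (4.91), where a difference without PMA may be understated. The interaction was negative for HSPA6 at −2.23 ± 0.30 (adjusted p = 0.002), whose DOC difference was −2.51 with PMA and −0.29 without it, where the vehicle and DOC arrays were all dim. It was also negative for PHLDA1 at −0.77 ± 0.13 (0.0194), a pleckstrin-like gene of ERK feedback that DOC alone raised by 0.63 and that stood at −0.14 with PMA.

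Of the 10 genes called with and without PMA, PDK4, RGS2 and TIPARP thus had an interaction call and 7 did not. In the latter the interaction was 0.07 ± 0.12 for S1PR3 (95% interval −0.17 to 0.32), 0.03 ± 0.11 for SGK1 (−0.21 to 0.27), −0.07 ± 0.11 for FKBP5 (−0.30 to 0.16) −0.19 ± 0.14 for PHACTR3 (−0.48 to 0.10), 0.24 ± 0.14 for SPINK13 (−0.04 to 0.53) and 0.00 ± 0.13 for ZNF189 (−0.27 to 0.27), each with an adjusted p of 1.0. For TSC22D3 it was 0.46 ± 0.13 (0.19 to 0.73, adjusted p = 0.806). A missed threshold does not show equal responses, and these intervals give the differences that the arrays allow.

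Several interaction calls were lost on leaving out any 1 of many arrays, with the value itself little moved by the omission. APOLD1, CYP26A1, HS3ST3B1, HSPA6 and TIPARP passed in all 26 alternatives that were run, with adjusted p up to 0.0253. PDK4 was lost without any vehicle replicate, PMA or DOC replicate 2, 3 or 4 or DOC plus PMA replicate 1, 2 or 4 (adjusted p = 0.0628 to 0.131). In those omissions its value was 1.07 to 1.21. RHOB was lost without vehicle replicate 1, 2 or 3, PMA replicate 1, 3 or 4, DOC replicate 2, 3 or 4 or DOC plus PMA replicate 1, 2 or 4 (0.0538 to 0.0845), and with averaged probe sets its value was 0.17 (0.999). XIRP1 was lost without vehicle replicate 1, 2 or 3, PMA or DOC replicate 4 or DOC plus PMA replicate 1, 2 or 4 (0.0518 to 0.0726). TXNIP was lost without vehicle replicate 2 or 4, PMA replicate 1 or 4, DOC replicate 4 or DOC plus PMA replicate 1 or 2 (0.0511 to 0.069), and with averaged probe sets (0.296). RGS2 was lost without vehicle replicate 3, PMA replicate 1 or 4, DOC replicate 2 or 4 or DOC plus PMA replicate 1 or 4 (0.0548 to 0.0735). PHLDA1 was lost without vehicle or DOC replicate 2 or 4 or DOC plus PMA replicate 4 (0.0536 to 0.0726), and with averaged probe sets (0.116). Without the 3 arrays that deviated together, PHLDA1 (0.055), XIRP1 (0.0643) and TXNIP (0.072) were lost. With every kept probe set tested, PDK4, RHOB, XIRP1, TXNIP, RGS2 and PHLDA1 were lost (0.056 to 0.108).

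The AP-1 family itself did not pass the test for a steroid effect in the presence of PMA in any member. Of the 13 tested genes 0 passed, where 0.384% of all genes were called, so a list of this size would seldom hold a call. There were 8 differences below 0, and the median was −0.02 against 0.02 for all genes. FOS had 10.22, 10.12, 10.12 and 10.02 with PMA and 10.09, 10.14, 10.10 and 10.06 with both, a difference of −0.02 ± 0.11 (adjusted p = 1.0, 95% interval −0.26 to 0.21). JUN, its usual partner, had 11.49, 11.83, 11.53 and 11.52 with PMA and 11.36, 11.46, 11.35 and 11.45 with both (−0.19 ± 0.07, adjusted p = 0.929). All 4 JUN arrays with the steroid lay below the 4 without it, as the arrays did in 91 genes on that side. ATF3, a stress-induced AP-1 subunit, was at 11.05 to 11.15 and 11.05 to 11.25 (0.03 ± 0.10). The other differences were −0.27 for FOSB, −0.16 for FOSL1, −0.16 for the repressor JDP2, −0.09 for JUNB, −0.04 for JUND, 0.00 in size for FOSL2, 0.02 for ATF2, 0.05 for ATF7, 0.06 for BATF3 and 0.17 for BATF2, each with an adjusted p of 1.0. For 11 of the 13 the 95% interval lay within 0.5 on the log2 scale in both directions, with FOSB (−0.69 to 0.15) and BATF2 (−0.29 to 0.63) outside.

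Of 26 listed inflammatory and matrix targets of AP-1, 15 were tested and 0 passed the threshold, where 0.384% of all genes passed. A list of this size would seldom hold a call. The interval limit given above for the AP-1 family was met by only 5 of the 15. The 0 calls thus do not exclude larger differences in the rest. The median of the 15 was the lowest of the lists, −0.23, with 10 of 15 differences below 0. Of all genes tested, 58.0% were above 0. PTGS2, the inducible cyclooxygenase that makes prostaglandins, had 7.35, 7.56, 7.24 and 7.34 with PMA and 6.80, 7.08, 6.83 and 6.98 with both, while vehicle was at 2.96 to 3.45. The arrays did not overlap, and the difference was −0.45 ± 0.11 (adjusted p = 0.101). It passed with replicate numbers as a block (adjusted p = 0.00922 over 16 arrays and 0.0163 over 8), with a common median (0.0462), with averaged probe sets (0.0347) and without vehicle replicate 1 (0.0329). PLAU, the urokinase plasminogen activator, was at 5.49 to 5.89 and 5.14 to 5.50 (−0.31 ± 0.13, adjusted p = 0.996). At the other end was its receptor PLAUR at 0.28, named after its value was seen.

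**Figure D4:**
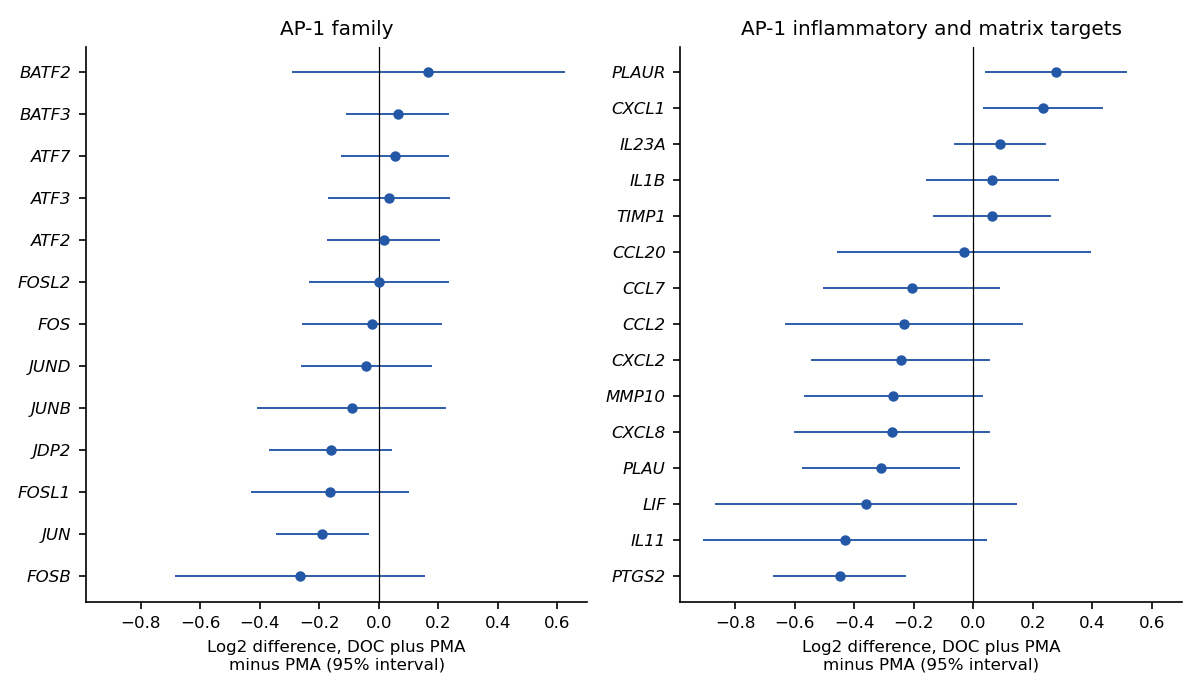
Log2 difference of DOC plus PMA minus PMA (horizontal axis) with its 95% interval from limma for the 13 tested AP-1 family genes (left) and 15 AP-1 inflammatory and matrix targets (right), each ordered by value. No gene passed the threshold; family members lie between −0.27 and 0.17, and 10 of the 15 targets lie below 0, down to −0.45 for PTGS2.

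Corticosteroid-induced genes were the list with the most calls. Of 30 tested members 8 rose (FKBP5, TSC22D3, SGK1, PDK4, TIPARP, RGS2, SLC19A2 and S1PR3) and 0 fell, 27 differences were above 0, and the median was 0.27 with PMA and 0.28 without it. The share called in all genes was 0.384%. This list was drawn up with earlier results of these arrays known, so its count is no independent evidence of direction. Aldosterone-regulated sodium transport had 2 of 13, SGK1 and TSC22D3, with a median of 0.03, and the list of pyruvate dehydrogenase and glucose use had 2 of 15, PDK4 and TXNIP, with a median of 0.02. Steroid receptors and chaperones had FKBP5 alone of 15, with a median of 0.00 in size. HSD11B2, the enzyme that protects the mineralocorticoid receptor from cortisol, was dim at 4.24 to 4.55 and 4.35 to 4.74 (0.09 ± 0.11, adjusted p = 1.0).

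Lists tied to PMA signalling had few or no calls for the steroid. The share called in all genes was 0.384%, so 0 calls in lists this short do not set them apart. Immediate early genes had APOLD1 alone of 21 and a median of −0.10, with 14 differences below 0, among them the orphan receptor NR4A2 at −0.36 ± 0.11 (adjusted p = 0.444). ERK pathway feedback had 0 of 17, with a median of 0.00 in size, from −0.28 to 0.18, with the phosphatases DUSP5 at 0.18 and DUSP10 at 0.17. NF-kB subunits, inhibitors and targets had 0 of 14 with a median of −0.02, NFKB1 at −0.19 and NFKBIA at 0.33. Protein kinase C and D isoforms had 0 of 11, all of them above 0, with a median of 0.06 and the largest value 0.28 ± 0.09 for PRKCQ, which passed with averaged probe sets (adjusted p = 0.0146). Targets of SRF, MRTF and YAP had XIRP1 alone of 17 and a median of −0.02.

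Notch signalling had NRARP alone of 15, lower, with a median of −0.06. Over all genes 0.384% were called. Genes of BMP signalling had 0 of 16 (median −0.05), led by BMP2 at −0.21 ± 0.06 (adjusted p = 0.289) and ID2 at 0.31 ± 0.09 (0.353). The circadian clock had 0 of 14 (median −0.03), where PER1, a clock gene that steroid receptors induce, was at 4.10, 4.10, 4.25 and 4.18 with PMA and at 4.62, 4.67, 4.55 and 4.91 with both. The PER1 arrays did not overlap and differed by 0.53 ± 0.14 (adjusted p = 0.219), past the threshold with replicate numbers as a block over the 8 arrays (0.025) or without a block in the same 8 (0.0262). Lists with no call and small medians were p53 targets (18 genes, 0.01), mitosis and DNA replication (28, 0.02), the unfolded protein and integrated stress response (19, 0.02), cholesterol synthesis (14, 0.04) and interferon-induced genes (24, 0.07). In mitosis and replication the 95% interval lay within 0.5 for all 28 genes, in the stress response for all 19, and in the interferon list for 7 of 24. Interferon genes were less precise, with IFI44L at 8.73 and 8.43 in replicate 1 of the PMA and DOC plus PMA groups and at 7.50 to 7.82 in the other 6 arrays. Of the marker lists, 0 of 3 leukocyte, 0 of 5 endothelial, 0 of 3 fibroblast, 0 of 9 HEK293 and 0 of 3 tubule genes tested passed. APOLD1, THBD and S1PR1, which are also known from endothelial cells, thus rose while the median of the endothelial markers was −0.01.

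**Figure D5:**
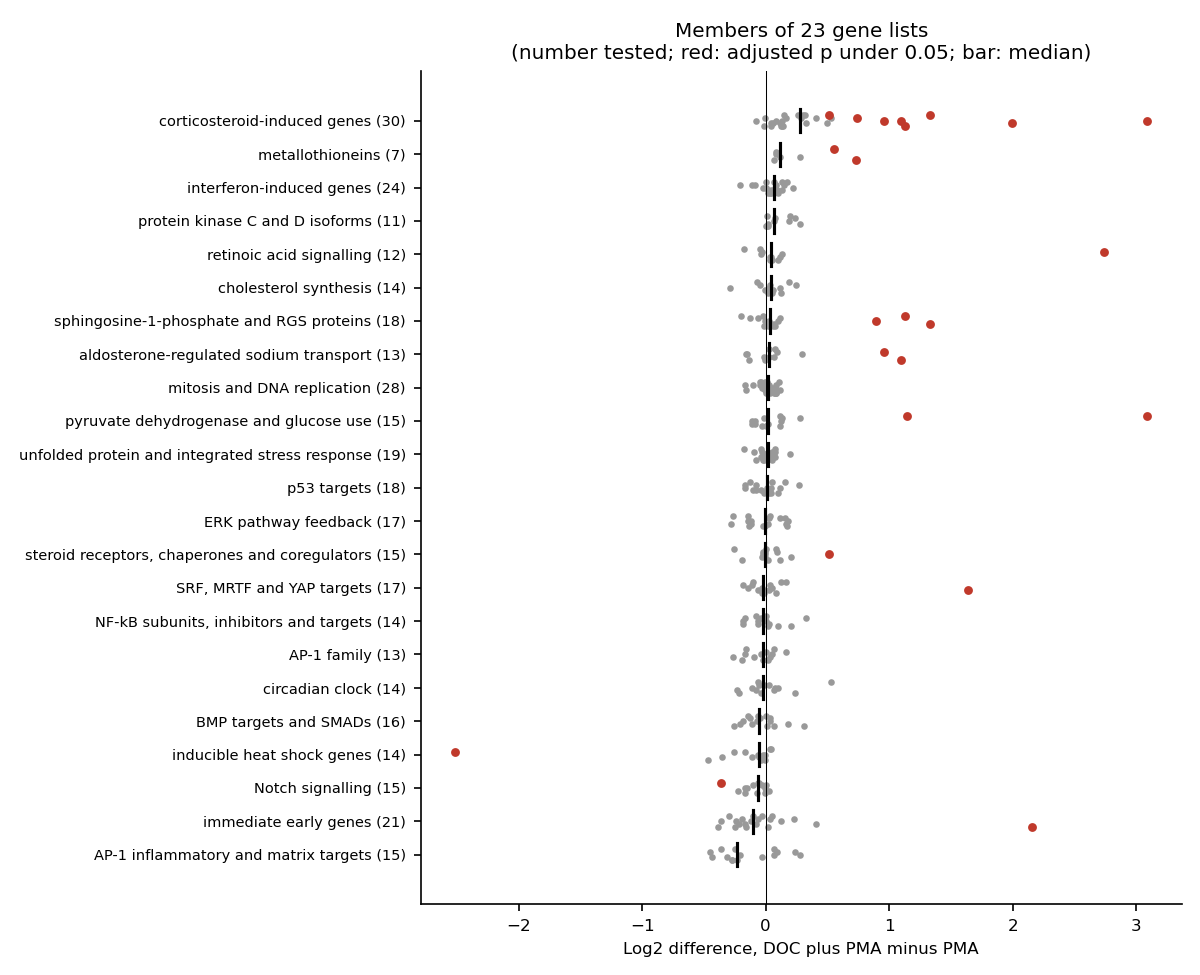
Log2 difference of DOC plus PMA minus PMA (horizontal axis) for the tested members of 23 gene lists, ordered by median (number tested in brackets); each dot is a gene, red where its adjusted p was under 0.05, and the black bar is the list's median. Corticosteroid-induced genes have the highest median, 0.27, with 8 red dots, and AP-1 inflammatory and matrix targets the lowest, −0.23, with none.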

How the data were processed

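Total RNA of 16 HEK293 cultures was labelled from 100 ng with a 3′ kit and read on Affymetrix PrimeView arrays, 4 per group, per the labels' protocols. The deposited values are log2 signals: the authors ran RMA with Affymetrix Expression Console, as the submitters' processing notes name them. Their versions are not stated in the sources used here. The table held 49293 probe sets, with values from 1.21 to 13.8 and 0 columns beyond the 16 arrays. Platform annotation paired 44988 probe sets with 1 gene (44961 matched a current gene), 1832 with several and 2473 with none. Probe sets had to reach the 40th percentile of the signals of an array on 4 or more arrays (30613 did, of which 28226 had 1 gene). Each gene was then read from the brightest of its kept probe sets, which gave 12495 genes. Of the 48 genes called, 39 were above the filter in all 16 arrays, and 3 (PHACTR3, SLC9A2 and SPINK13) would not pass it without the arrays with DOC.

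A model with 4 group means was fitted to all 16 arrays in limma 3.58.1 (R 4.3.3, lmFit and eBayes). Contrasts were DOC plus PMA against PMA, DOC against vehicle, PMA against vehicle and the interaction. A gene passed at an adjusted p under 0.05 (two-sided, Benjamini-Hochberg over all 12495 genes), with no fold minimum, and differences are given ± SE. Arrays have no read depth, and their number limits precision: the median SE of a difference was 0.09, a 95% interval of 0.18 either way.

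What arrays of one replicate number share across groups is not given in the labels. Deviations from the group means correlated at 0.351, 0.549, 0.367 and 0.157 in the same-number pairs of PMA and DOC plus PMA, all over 0.1, so the numbers were taken as pairs, from the data alone. Among pairs of unlike number, PMA replicate 4 with DOC plus PMA replicate 3 reached 0.335, more than the same-number pair of replicate 4. The other unlike pairs of these groups ran from −0.426 to 0.0666. The correlations thus do not settle the pairing of every number. Not every vehicle and DOC pair passed 0.1. The block is an alternative, given beside the results whose call it changes. Named genes were every gene past the threshold in the steroid comparisons or the interaction, all AP-1 family genes tested, the members of each list past the threshold and its 2 smallest p, and NR3C2, NR3C1 and HSD11B2. The 23 gene lists, 5 marker lists and the comparison were chosen with earlier results of these data known. Other settings were 3 scalings or weights, 2 filters, 2 rules for probe sets, other variance settings, a fit of 8 arrays and omission of each array. Start windows are RefSeq's, GRCh38.p14.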

Additional observations from a re-analysis of the deposited data

Results flagged for a closer look

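In the groups of 4 arrays of the genes named here, 28 of 420 had 1 array whose gap to the others passed Dixon's 95% limit, where chance gives about 1 in 20. DOC replicate 1 stood apart in 6 genes, high for BDNF (5.51, the others 5.10 to 5.14), MT2A (11.48, the others 10.92 to 10.94), SHISA2 (7.48, 6.89 to 6.97) and SLC19A2 (7.34, 7.24 to 7.25) and low for CYP26A1 (4.03, 4.46 to 4.48) and NES (4.06, 4.30 to 4.34). IFI44L was high in replicate 1 of vehicle (9.12, 7.99 to 8.16), PMA (8.73, 7.67 to 7.82) and DOC plus PMA (8.43, 7.50 to 7.61). PMA replicate 2 stood high for FKBP5 (10.41, 10.13 to 10.15), JUN (11.83, 11.49 to 11.53) and TMX4 (9.68, 9.34 to 9.39), and PMA replicate 1 low for ZNF57 (6.30, 6.42 to 6.43), ID2 (8.85, 9.18 to 9.21) and TIE1 (4.79, the others at 5.05) and high for MDM2 (8.44, 8.31 to 8.32). PMA replicate 3 was low for PRKCZ (7.05, 7.21 to 7.23) and replicate 4 for TUBA3E (4.98, 5.18 to 5.21). Among vehicle arrays, replicate 1 was high for MT2A (11.31, 10.74 to 10.77) and TGIF1 (7.78, 7.65 to 7.67) and low for BMP2 (7.48, 7.57 to 7.59), replicate 2 low for FOS (4.00, 4.61 to 4.64) and replicate 4 low for JUNB (4.52, 5.07 to 5.16). DOC replicate 3 was high for ATF3 (10.27, 9.86 to 9.91) and low for RNF122 (5.22, 5.38 to 5.42) and COL1A1 (3.76, 4.23 to 4.25). DOC plus PMA replicate 3 was low for ATF2 (8.58, 8.79 to 8.82) and replicate 2 high for FHL2 (8.99, 8.81 to 8.83).

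By the interaction in limma, the DOC difference was higher with PMA for CYP26A1 (2.98), APOLD1 (1.61), XIRP1 (1.59), TXNIP (1.24), TIPARP (1.18) and PDK4 (1.18). The same held for HS3ST3B1 (0.76), RHOB (0.73) and RGS2 (0.69). The interaction was negative for HSPA6 (−2.23), which fell with PMA, and for PHLDA1 (−0.77), which rose without PMA and did not pass with it. CYP26A1, APOLD1, TIPARP, HS3ST3B1 and HSPA6 passed in all 26 alternatives run. Each of the others was lost in several, and with averaged probe sets the RHOB value was 0.17.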

How the results depend on the processing

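In 28 alternatives, 28 of the 48 genes passed wherever they were tested, 20 were lost in at least 1 and 0 changed sign; of the 57 other genes named, 6 passed in at least 1. DOC plus PMA against PMA called 89 genes with array weights (83 higher, 6 lower) and, leaving out 1 array, from 31 without DOC plus PMA replicate 4 to 53 without PMA replicate 2. The interaction called 5 genes with every kept probe set tested, 25 with array weights, and from 5 (without DOC replicate 4) to 14 (without DOC replicate 1) with 1 array left out. It called 6 without vehicle replicate 2, PMA replicate 4 or DOC plus PMA replicate 1 or 4, and 7 without vehicle replicate 3, DOC replicate 2 or DOC plus PMA replicate 2. Fewer arrays or more tests are part of these settings, and the cause for array weights was not tested. With replicate numbers as a block, 61 genes were called over 8 arrays (50 higher, 11 lower, 41 of the 48 among them) and 56 over 16 arrays (48 higher, 8 lower, 44 of the 48), and it changed no call of a gene named here beyond those given beside their values in the report. For DOC against vehicle, the block over 8 arrays ended the calls of NFKBIA (0.0871), STARD7-AS1 (0.0656) and ZNF189 (0.103), and 15 genes were called as before, 12 of them shared. Over all alternatives DOC against vehicle gave 11 to 18 calls and PMA against vehicle 5086 to 6505. For PMA the scaling moved the balance, from 2206 higher and 3663 lower to 3010 and 2990 after cyclic loess and 3418 and 2748 with a common median. For DOC plus PMA against PMA the median of all genes was 0.02 as deposited 0.0018 after cyclic loess and −0.0017 with a common median. Low signals, as in PHACTR3, SPINK13 and SLC9A2, and in CYP26A1, XIRP1 and HSPA6 without PMA, may understate a difference. Near-identical transcripts (HSPA6, HSPA1B, TUBA3D, TUBA3E, metallothioneins) cannot be separated here.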
